A study of Homo sapiens with 24 samples.

Results

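The genes described here are 35 glycolysis and hypoxia response genes, taken as a list of gene symbols and matched to the array's probes through the platform listing. All 35 had a probe, among 20046 genes with at least 1 probe of a single symbol, and all 35 passed the filter on detection, which kept 10351 genes. Their levels were compared between leukaemia cells taken from blood, spleen and bone marrow, sites that differ in oxygen supply, and between inhibitor-treated and control mice. No oxygen level was measured in these samples.

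The cells were OCI-AML3, an established human acute myeloid leukaemia line, engineered to carry luciferase and GFP and grown in NSG mice, which lack T, B and NK cells of their own. Cells were sorted on GFP and human CD45 from peripheral blood, spleen and femoral marrow of 8 mice, 1 array per site and mouse, 24 arrays in 9 groups. There were 3 control mice harvested on day 42 after inoculation, 3 mice given the CXCR4 inhibitor LY2510924 for 24 h and harvested on day 41, and 2 mice given it for 72 h and harvested on day 43. The compound, spelled LY2510294 in the sample characteristics, was injected subcutaneously once a day, 2.5 mg/kg each time. The ages of the mice and the treatment of the controls were not given in the sources used here. Every group carries the same line and reporters, so nothing here describes other leukaemias. Treatment, harvest day and, for the inhibitor groups, BeadChip (the slide that holds the arrays) cannot be told apart: BeadChip 1 held the 24 h mice and 1 control mouse, BeadChip 2 held the 72 h mice and the other 2 control mice.

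Glycolysis turns glucose into pyruvate in the cytosol and yields ATP without oxygen; lactate dehydrogenase then turns pyruvate into lactate. Under low oxygen the transcription factor HIF-1 escapes prolyl hydroxylation and degradation, binds short DNA elements, and raises glucose transporters, glycolytic enzymes, regulators of mitochondria and secreted factors. Bone marrow is known as a tissue of low oxygen tension, and many leukaemia cells rely on glycolysis.

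The HIF binding element has the core ACGTG or GCGTG on either strand. Promoter windows of 300 bases around the annotated start were taken from RefSeq (GRCh38.p14) for the 31 members it listed. SLC2A3, BNIP3L, NDRG1 and VEGFA had no entry. Of 57 member windows, 42 (73.7%) held a core, against 48.4% of all 35116 windows. A core stood in at least 1 window of 9 of the 9 matched members that were higher in blood than in marrow, 7 of the 8 that were lower and 14 of the 14 that did not pass the test. Members with several windows had more chances to hold a core. By window, a core stood in 11 of 19, 13 of 20 and 18 of 18. The 4 windows below, chosen after the values were seen, are shown because they hold the most cores among the windows of each outcome: ALDOC was higher in blood, HK2 and LDHA were lower, and BNIP3 did not pass. They lie at chr17:28576846-28577145 on the minus strand, chr2:74834920-74835219 on the plus strand, chr11:18394313-18394612 on the plus strand and chr10:131981874-131982173 on the minus strand. Each is written 5′ to 3′ along its gene's strand, with the cores in capitals; CACGTG holds ACGTG on both strands. ALDOC holds 5 cores, and HK2, LDHA and BNIP3 hold 6 each.
ALDOC: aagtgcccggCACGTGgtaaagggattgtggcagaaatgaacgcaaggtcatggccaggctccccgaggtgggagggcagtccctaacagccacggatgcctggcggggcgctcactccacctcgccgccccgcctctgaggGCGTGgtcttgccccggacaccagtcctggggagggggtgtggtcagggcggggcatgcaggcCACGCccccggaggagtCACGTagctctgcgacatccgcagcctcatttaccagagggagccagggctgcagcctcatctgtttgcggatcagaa
HK2: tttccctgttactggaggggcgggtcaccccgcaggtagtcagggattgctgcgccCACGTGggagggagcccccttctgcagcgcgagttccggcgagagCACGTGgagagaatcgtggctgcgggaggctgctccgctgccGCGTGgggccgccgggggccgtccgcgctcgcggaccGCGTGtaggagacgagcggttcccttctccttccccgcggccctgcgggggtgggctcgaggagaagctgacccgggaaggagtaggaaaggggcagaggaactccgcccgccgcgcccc
LDHA: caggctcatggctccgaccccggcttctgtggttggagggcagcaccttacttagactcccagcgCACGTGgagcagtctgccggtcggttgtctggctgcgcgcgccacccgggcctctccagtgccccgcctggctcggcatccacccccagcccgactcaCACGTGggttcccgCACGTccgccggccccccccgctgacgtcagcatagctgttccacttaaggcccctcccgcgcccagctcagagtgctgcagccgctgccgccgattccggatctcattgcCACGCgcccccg
BNIP3: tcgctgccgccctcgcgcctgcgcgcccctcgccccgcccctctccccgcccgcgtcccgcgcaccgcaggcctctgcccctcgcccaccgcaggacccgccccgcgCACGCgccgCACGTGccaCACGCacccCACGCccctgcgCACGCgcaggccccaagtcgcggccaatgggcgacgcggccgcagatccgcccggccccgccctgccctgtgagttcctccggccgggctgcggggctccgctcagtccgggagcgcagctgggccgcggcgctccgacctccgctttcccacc
A match is a description of these letters and not a site of binding. The windows shown were picked as the richest of each outcome, so their counts do not compare the outcomes.

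Values are normalised log2 intensities. Each is the signal of 1 probe, so levels of different genes are not compared. Differences are log2 differences with their standard error (SE) from limma's moderated test, and a gene passed at a Benjamini-Hochberg adjusted p under 0.05 over all 10351 genes. n counts mice. In the site comparisons the p-values measure how differences within a mouse vary between these mice. For treatment over all sites they measure the spread of mouse means. For treatment at a single site the spread is pooled over the arrays of all groups, with no term for the mouse. Deviations of arrays from the same mouse correlated by 0.284 on average. Between 13066 and 15721 probes were detected per array. The blood array of 72 h mouse 8 had the lowest mean correlation with the control marrow arrays, 0.843, against 0.89 to 0.991 for the other arrays. The spleen array of the same mouse was next, at 0.89. Both values also hold differences of site and treatment. Of the leukaemia line's 9 markers on the array, 7 were detected. LYZ, CD38, MEIS1 and PBX3 were detected on all 24 arrays. MPO and KIT were never detected. PTPRC, the gene of the CD45 used in the sort, was detected on 6 of 8 blood, 5 of 8 spleen and 2 of 8 marrow arrays. Fewer cells of a type and less RNA per cell cannot be told apart in these bulk samples.

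In blood against marrow, the members split into genes that were higher and genes that were lower. Adrenomedullin, the transporter SLC2A3, the regulator PFKFB4 and enolase 2 were higher in blood. AK4, hexokinase 2, the transporter SLC2A1 and both lactate dehydrogenases were lower. Over 8 mice, 18 of 35 members passed (51.4%), 10 higher and 8 lower, beside 48.1% of all genes, 21.4% higher and 26.7% lower. The share of members that passed was thus close to that of all genes. The ranges in blood and marrow over all 8 mice overlapped for each of the 35 members. The median difference was -0.10 for the members and -0.03 for all genes. Within BeadChip 1 alone 2 members passed, beside 710 of all 10351 genes, and within BeadChip 2 alone 8, beside 1738, with 4 mice each. No difference that passed over all mice changed sign in either.

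**Figure D1:**
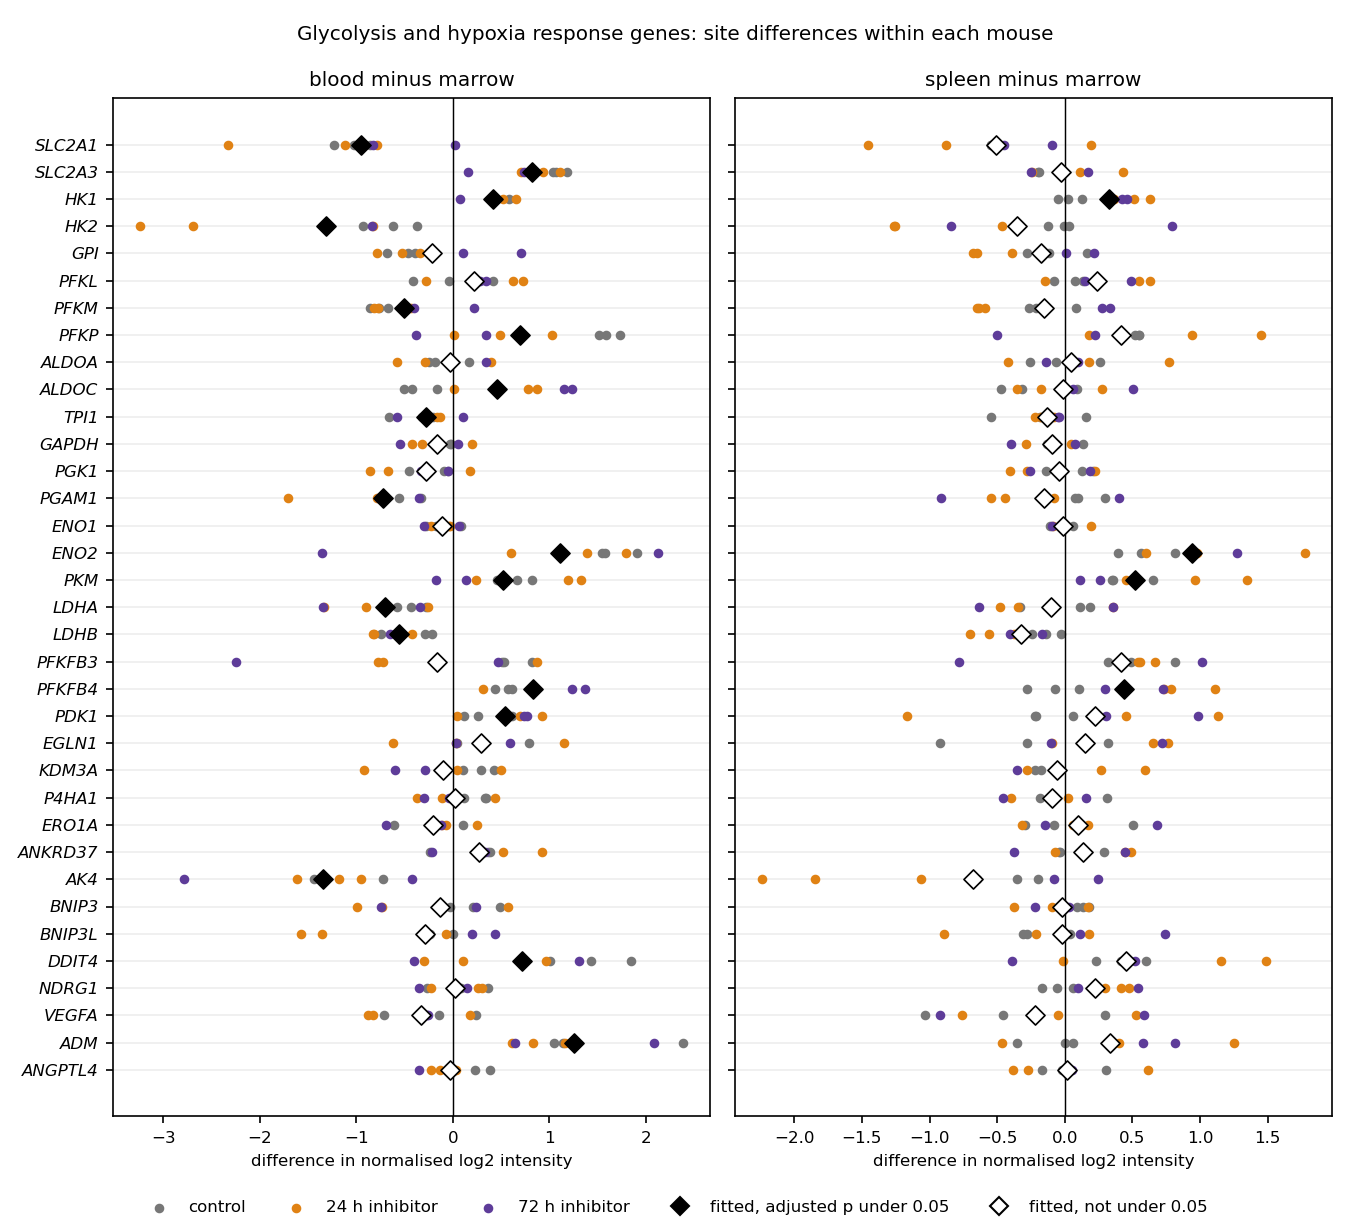
Differences of the 35 members within each mouse, in normalised log2 intensity: blood minus marrow on the left, spleen minus marrow on the right. Small points are mice coloured by treatment and diamonds are fitted differences, filled where the adjusted p was under 0.05. The blood panel has 18 filled diamonds on both sides of 0 and the spleen panel has 4, all above 0.

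Glucose enters the cell through facilitative transporters, of which SLC2A3 (GLUT3) has a higher affinity for glucose than SLC2A1 (GLUT1), and hexokinases trap it as glucose-6-phosphate. SLC2A3 spanned 11.51 to 12.31 in blood (median 11.94), 10.39 to 11.53 in spleen (11.17) and 10.43 to 11.78 in marrow (10.99). It was higher in blood than in marrow in 8 of 8 mice, by 0.82 ± 0.10 (SE; limma adjusted p = 3.09e-05), and higher than in spleen by 0.85 ± 0.10 (adjusted p = 0.000373). Its call against marrow held under all 20 alternatives of processing. SLC2A1 ran the other way, from 7.59 to 9.26 in blood (median 8.30) and from 8.42 to 9.91 in marrow (9.24), and was lower in blood in 7 of 8 mice, at -0.95 ± 0.19 (adjusted p = 0.000991). HK2, the inducible hexokinase bound to mitochondria, spanned 6.50 to 8.32 in blood (median 7.43), 6.94 to 9.15 in spleen (8.71) and 7.78 to 10.33 in marrow (8.76). It was lower in blood in 8 of 8 mice, at -1.32 ± 0.26 (adjusted p = 0.00099), and the ranges of blood and marrow overlapped. The lowest differences within a mouse, -3.24 and -2.69, were in the 24 h mice 1 and 2, and the control mice lay between -0.93 and -0.37. A dimmer second HK2 probe, detected on all 24 arrays, differed by -0.37 (adjusted p = 0.0335), and the mean of both probes by -0.84, so the size of the HK2 difference depended on the probe. The comparison of HK1 with HK2 uses the brighter probe. HK1, the constitutive hexokinase, was higher in blood in 8 of 8 mice by a smaller amount, 0.42 ± 0.09 (adjusted p = 0.00121).

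Upper glycolysis converts glucose-6-phosphate to 2 triose phosphates, with phosphofructokinase as its main control point. The muscle-type subunit PFKM spanned 7.23 to 8.71 in blood (median 7.84) and 7.66 to 8.89 in marrow (8.58). It was lower in blood in 7 of 8 mice, at -0.51 ± 0.10 (adjusted p = 0.000988), the exception being mouse 8. The platelet-type subunit PFKP spanned 11.31 to 12.43 in blood (median 11.97) and 10.57 to 11.79 in marrow (11.12), and was higher in 7 of 8 mice by 0.70 ± 0.14 (adjusted p = 0.00124). The liver-type subunit PFKL differed by 0.22 ± 0.13 (adjusted p = 0.186). Aldolase C was higher in blood by 0.46 ± 0.13 (adjusted p = 0.00982) but in only 5 of 8 mice: it was lower in all 3 control mice. Aldolase A, at -0.03 ± 0.14, and the isomerase GPI, at -0.22 ± 0.11, did not pass. Triose phosphate isomerase, TPI1, was lower at -0.27 ± 0.10 (adjusted p = 0.0414), a call that held under 8 of 20 alternatives and was lost without any one of mice 1, 2, 3, 4, 6 or 8.

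Lower glycolysis oxidises triose phosphates to pyruvate and makes ATP. Phosphoglycerate mutase PGAM1 spanned 8.55 to 9.94 in blood (median 9.77) and 9.92 to 10.63 in marrow (10.31), so the ranges overlapped narrowly. It was lower in blood in 8 of 8 mice, at -0.72 ± 0.15 (adjusted p = 0.00128). A second PGAM1 probe, dimmer, differed by -0.01 (adjusted p = 0.977), and PGAM1 has a near-identical copy, PGAM4. Pyruvate kinase PKM, which makes pyruvate, spanned 9.80 to 10.17 in blood (median 9.97), 9.64 to 10.28 in spleen (9.91) and 8.69 to 10.02 in marrow (9.31). It was higher in blood by 0.52 ± 0.12 (7 of 8 mice, adjusted p = 0.00341). With the mean of its 3 kept probes the PKM difference was 0.14 and did not pass. Enolase 2, the neuronal isoenzyme and a HIF target, was higher in blood by 1.11 ± 0.29 (7 of 8 mice, adjusted p = 0.00559), but was detected on 6 of 8 blood and 1 of 8 marrow arrays, so background limits that value. GAPDH, PGK1 and enolase 1 differed by -0.17 ± 0.10, -0.28 ± 0.13 and -0.11 ± 0.09, and none passed. A dimmer second PGK1 probe was lower at -0.41 (adjusted p = 0.00596).

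The lactate dehydrogenases, which interconvert pyruvate and lactate, were both lower in blood in 8 of 8 mice. LDHA, the HIF-induced subunit, spanned 12.03 to 13.93 in blood (median 13.18), 12.74 to 14.16 in spleen (13.83) and 13.37 to 14.19 in marrow (13.87). The difference between blood and marrow was -0.70 ± 0.16 (adjusted p = 0.00257), and its 3 kept probes all passed with -0.62 to -0.70. LDHB spanned 11.95 to 12.85 in blood (median 12.35) and 12.60 to 13.11 in marrow (13.04), a difference of -0.56 ± 0.10 (adjusted p = 0.000588). For both genes the blood and marrow ranges overlapped.

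The 3 regulators bear on the flow through the pathway. PFKFB4, a bifunctional enzyme that sets the level of the phosphofructokinase activator fructose 2,6-bisphosphate, spanned 7.69 to 10.18 in blood (median 8.62), 7.53 to 9.10 in spleen (8.44) and 7.37 to 8.80 in marrow (8.0). It was higher in blood than in marrow in 8 of 8 mice, by 0.83 ± 0.10 (adjusted p = 3.22e-05). PDK1, the kinase that turns off pyruvate dehydrogenase, spanned 6.24 to 7.21 in blood (median 6.62) and 5.61 to 6.85 in marrow (6.12). It was higher in 8 of 8 mice, by 0.55 ± 0.19 (adjusted p = 0.0259), and kept the call under 9 of 19 alternatives; it was lost without any one of mice 3, 5, 6, 8 or 9. PFKFB3, the paralogue of PFKFB4, differed by -0.16 ± 0.25 and was higher in 5 of 8 mice; mouse 8 had -2.24.

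Among genes of oxygen sensing, collagen and protein folding, AK4 had the lowest fitted difference. This mitochondrial adenylate kinase spanned 6.45 to 9.05 in blood (median 8.11), 6.69 to 9.48 in spleen (9.05) and 8.93 to 9.78 in marrow (9.37). It was lower in blood in 8 of 8 mice, at -1.34 ± 0.25 (adjusted p = 0.000576), and all 3 kept probes passed, with -1.34, -1.05 and -0.31. ANKRD37, a small HIF target, spanned 6.32 to 7.21 in blood (median 6.92) and 5.95 to 6.81 in marrow (6.64) and did not pass at 0.27 ± 0.12 (adjusted p = 0.074). The collagen prolyl hydroxylase subunit P4HA1 (0.03), the oxidase ERO1A (-0.20) and the histone demethylase KDM3A (-0.10) did not pass. The oxygen sensor EGLN1 was detected on 2 of 8 blood and 0 of 8 marrow arrays and did not pass.

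Of the stress and mitophagy genes, DDIT4, an inhibitor of mTORC1, spanned 12.22 to 13.78 in blood (median 13.22) and 11.60 to 13.01 in marrow (12.36). It was higher in blood in 6 of 8 mice, by 0.71 ± 0.20 (adjusted p = 0.00944); without mouse 9 the call was lost. BNIP3L, a mitophagy receptor, spanned 8.65 to 10.45 in blood (median 9.34) and 8.46 to 10.57 in marrow (10.01), at -0.29 ± 0.16 (adjusted p = 0.144). Its paralogue BNIP3, at -0.14 ± 0.16, and NDRG1, at 0.03 ± 0.10, did not pass.

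Of the secreted factors, adrenomedullin (ADM), a vasodilator peptide, spanned 7.72 to 10.25 in blood (median 8.80), 6.50 to 10.55 in spleen (7.63) and 6.47 to 9.42 in marrow (6.98). It was higher in blood than in marrow in 8 of 8 mice, by 1.25 ± 0.22 (adjusted p = 0.000475), although the ranges over all mice overlapped. VEGFA, the vascular growth factor, was near background and spanned 5.30 to 6.15 in blood (median 5.50) and 5.14 to 6.52 in marrow (5.93), detected on 1 of 8 and 4 of 8 arrays. It did not pass, at -0.33 ± 0.20, nor did the lipase inhibitor ANGPTL4, at -0.03 ± 0.12.

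Related members were set against each other within the same mice. HK1 was higher and HK2 lower in blood than in marrow in 8 of 8 mice, and SLC2A3 was higher and SLC2A1 lower in 7 of 8. All 10 pairs among the gene families of the list were compared after the values had been seen, as a description without a test. The difference of differences, blood minus marrow of the first gene less that of the second, averaged 1.89 ± 0.88 (SD, n = 8) for SLC2A3 less SLC2A1, 1.79 ± 1.11 for HK1 less HK2 and 0.77 ± 0.54 for PFKL less PFKM, each above 0 in 8 of 8 mice. A value above 0 does not need opposite signs: PFKL and PFKM were both lower in blood in mice 3, 4 and 5 and both higher in mouse 8. For PFKP less PFKM it was 1.35 ± 1.05 and for ENO2 less ENO1 1.31 ± 1.04, each above 0 in 7 of 8 mice. LDHA less LDHB gave -0.13 ± 0.33, above 0 in 3 of 8, and BNIP3 less BNIP3L 0.24 ± 0.62, above 0 in 7 of 8. PFKP less PFKL, ALDOC less ALDOA and PFKFB4 less PFKFB3 were each above 0 in 5 of 8 mice. In spleen minus marrow the first 2 pairs averaged 0.51 ± 0.49 and 0.70 ± 0.84.

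**Figure D2:**
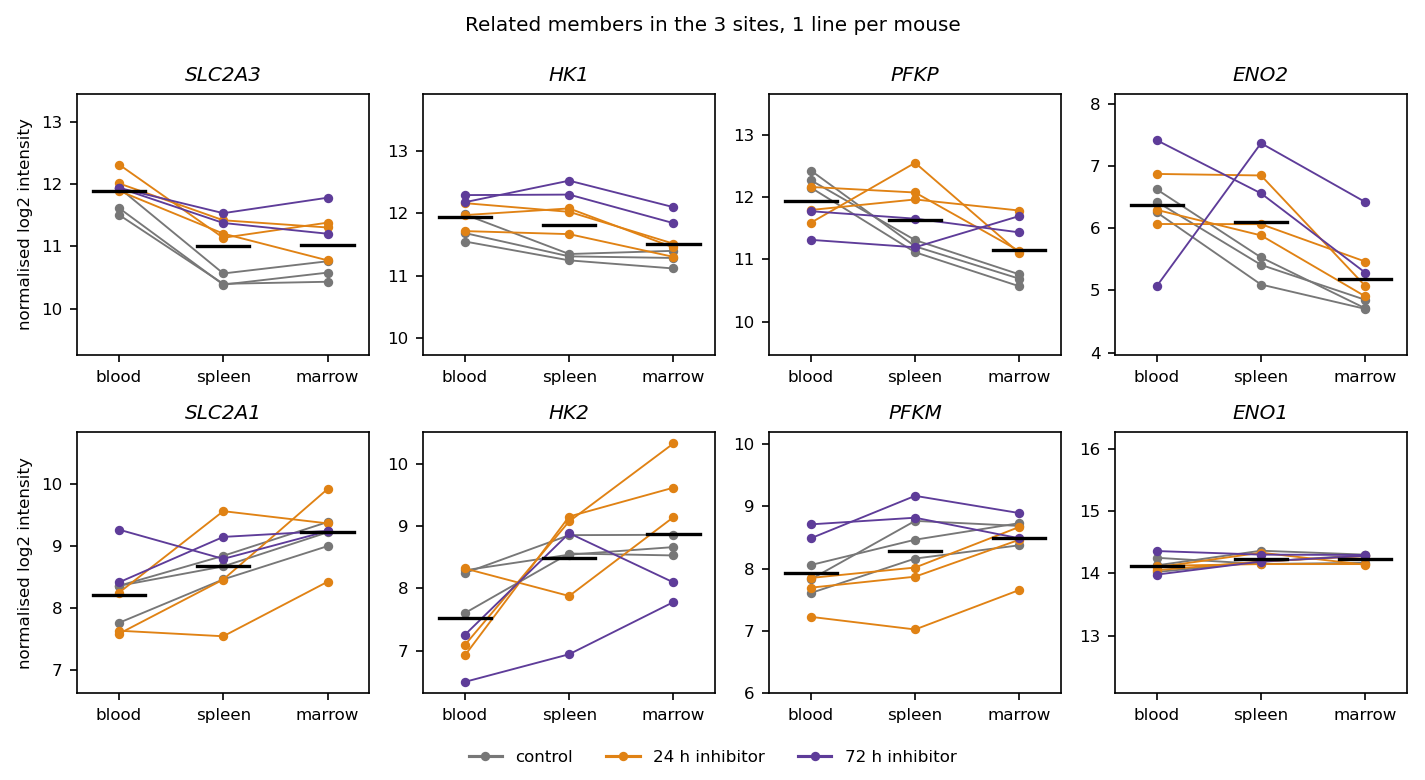
Normalised log2 intensity of 4 pairs of related members in blood, spleen and marrow, 1 line per mouse coloured by treatment, black bars at the mean over 8 mice. SLC2A3 was higher in blood than in marrow and HK2 lower in all 8 mice, and ENO1 stayed between 13.98 and 14.36.

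Fewer members passed in the comparisons with spleen. In spleen against marrow 4 of 35 members passed, all higher (11.4%, beside 10.8% of all genes). They were HK1 (0.33 ± 0.09, adjusted p = 0.0256), ENO2 (0.94 ± 0.29, adjusted p = 0.0482, detected on 4 of 8 spleen arrays), PKM (0.52 ± 0.12, adjusted p = 0.0146) and PFKFB4 (0.44 ± 0.10, adjusted p = 0.016). PKM was higher in spleen in 8 of 8 mice. With the mean of its kept probes the PKM difference was 0.46 and did not pass (limma adjusted p = 0.0706). No member passed without mouse 1 or mouse 5, nor within either BeadChip; without mouse 4 it was 1 member and without mouse 6 it was 2. In blood against spleen 8 of 35 passed (22.9%, beside 21.9% of all genes). SLC2A3, ALDOC, PFKFB4 and ADM were higher in blood, by 0.85, 0.47, 0.40 and 0.92. HK2, PFKM, PGAM1 and LDHA were lower, at -0.97, -0.36, -0.57 and -0.60. The PGAM1 call was lost with the mean of its kept probes. Leaving out mouse 6 left 1 member, leaving out mouse 1 left 4, and leaving out mouse 2 or mouse 4 left 5. Without a replicate block for the mouse, 2 of 35 passed in each of these comparisons.

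The differences between blood and marrow were also read within each treatment group. In control mice 10 of 35 members passed, 8 higher and 2 lower (28.6%, beside 16.3% of all genes). PFKP had the smallest p there, with 12.15, 12.27 and 12.43 in control blood and 10.57, 10.76 and 10.69 in control marrow. The groups did not overlap, and the difference was 1.61 ± 0.23 (3 of 3 mice, adjusted p = 0.000313). DDIT4, at 1.43 ± 0.32, and ADM, at 1.52 ± 0.36, passed in controls too, and ENO2, detected on no control marrow array, was at least 1.45-fold higher in blood. In 24 h mice 16 passed, 7 higher and 9 lower (45.7%, beside 36.3%), with HK2 at -2.25 ± 0.42 (adjusted p = 0.00152; -1.5 with the mean of both probes) and SLC2A3 at 0.92 ± 0.16 (adjusted p = 0.00123). SLC2A3 was 12.31, 12.01 and 11.89 in 24 h blood and 11.38, 11.30 and 10.78 in 24 h marrow, without overlap. ENO2 passed in 24 h mice at 1.26, but was detected on 2 of 3 blood arrays and no marrow array, so background limits that value. Its call there held under 8 of 17 alternatives. In 72 h mice 4 passed, 3 higher and 1 lower (11.4%, beside 16.2%). PFKFB4 had the smallest p, with 10.18 and 9.54 in 72 h blood and 8.80 and 8.30 in 72 h marrow, a difference of 1.31 ± 0.21 (adjusted p = 0.00272). Leaving out 1 control mouse left 2 to 4 members in controls, and leaving out any 1 of the 8 mice gave 2 to 12 there. The counts were 4 and 5 in 24 h mice without mouse 1 or 2, and 2 in 72 h mice without any one of mice 4, 5, 6 or 8. Without a replicate block the counts were 4 in controls, 10 in 24 h mice and 1 in 72 h mice.

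**Figure D3:**
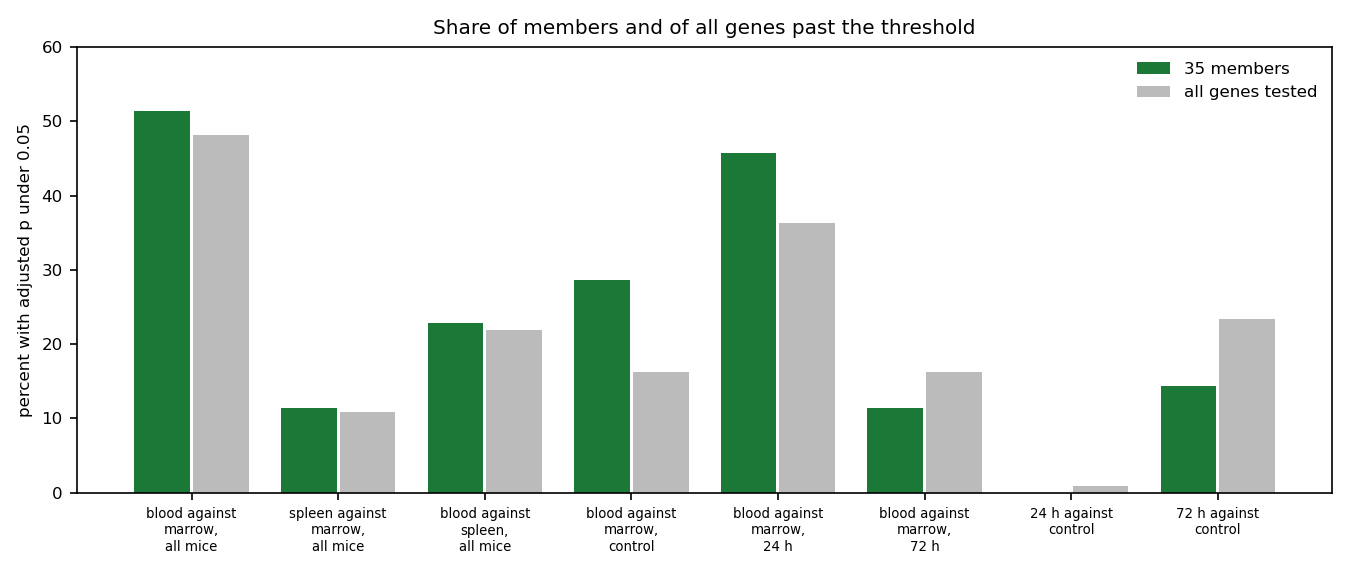
Percent of the 35 members (green) and of all genes tested (grey) with an adjusted p under 0.05 in 8 comparisons. In blood against marrow over all mice the bars are 51.4% and 48.1%, in control mice 28.6% and 16.3%, and in 72 h against control 14.3% and 23.4%.

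Mice on the inhibitor for 24 h were compared with control mice after the 3 sites of each mouse had been averaged. No member passed in limma (0 of 35, beside 0.898% of all genes). ADM had the smallest p and averaged 9.19 ± 0.96 in 24 h mice and 7.21 ± 0.08 in control mice (SD, n = 3 each). The difference of 1.98 ± 0.39 (SE) had an adjusted p of 0.0544, and the groups did not overlap. At 1 site at a time, 0 of 35 passed in marrow (beside 0.213%), 6 in spleen (17.1%, beside 12.5%) and 0 in blood (beside 0.0386%). ADM was 9.42, 9.30 and 7.58 in 24 h marrow and 6.85, 6.87 and 6.47 in control marrow, without overlap, at 2.04 ± 0.54 (adjusted p = 0.175). In blood ADM was 10.25, 9.91 and 8.75 in 24 h mice and 8.0, 7.92 and 8.85 in control mice, which overlapped, at 1.38 ± 0.54 (adjusted p = 0.276). In spleen GPI was 9.29, 8.86 and 8.87 in 24 h mice and 9.80, 9.97 and 9.68 in control mice. It fell by 0.81 ± 0.17 (adjusted p = 0.00499), and the groups did not overlap. ADM rose by 2.53 ± 0.54, PFKP by 0.98 ± 0.22, SLC2A3 by 0.80 ± 0.20 and HK1 by 0.62 ± 0.17 in spleen, and AK4 fell by 1.67 ± 0.47. In spleen, leaving out control mouse 4 left 1 member, control mouse 5 left 2 and 24 h mouse 1 left 3. Leaving out 24 h mouse 3 gave 1 member over all sites, 1 in marrow and 3 in blood. These counts have no share of all genes beside them.

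After 72 h, 5 of 35 members passed over all sites (14.3%, beside 23.4% of all genes). HK1 had the smallest p and averaged 12.21 ± 0.09 in 72 h mice (SD, n = 2) and 11.44 ± 0.14 in control mice (n = 3). It rose by 0.77 ± 0.17 (SE; adjusted p = 0.0257), with no overlap of the groups. SLC2A3 rose by 0.72 ± 0.18, ENO2 by 0.84 ± 0.20 and PFKFB4 by 1.13 ± 0.26. BNIP3L fell by 1.11 ± 0.28 (adjusted p = 0.0309), averaging 8.74 ± 0.13 in 72 h mice and 9.85 ± 0.11 in control mice. With BeadChip as a block 0 of the 35 passed, and 1 of all genes; within BeadChip 2, with 2 mice a side, 0 passed. Leaving out any one of mice 4, 5, 6 or 8 also left 0, and leaving out mouse 3 or 9 gave 10. Without mouse 8 or mouse 9 the 72 h group is 1 mouse, here and in the counts by site and the F tests. That mouse is assumed to vary like those of the other groups. Shares of all genes are not given for the refits with 1 mouse left out. ENO2 was detected on 4 of 6 arrays of 72 h mice and 3 of 9 of control mice.

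At single sites after 72 h, 2 of 35 members passed in marrow (5.71%, beside 2.6% of all genes), 2 in spleen (5.71%, beside 0.86%) and 5 in blood (14.3%, beside 33.8%). In marrow SLC2A3 was 11.78 and 11.20 in 72 h mice and 10.43, 10.58 and 10.76 in control mice. It rose by 0.90 ± 0.22 (adjusted p = 0.0348), without overlap, and BNIP3L fell by 1.48 ± 0.39. In spleen HK1 was 12.53 and 12.30 in 72 h mice and 11.25, 11.31 and 11.35 in control mice. It rose by 1.11 ± 0.19 (adjusted p = 0.00911), and SLC2A3 rose by 1.00 ± 0.22. In blood PFKFB4 was 10.18 and 9.54 in 72 h mice and 8.17, 8.46 and 8.61 in control mice, and rose by 1.44 ± 0.32 (adjusted p = 0.00442), without overlap. ALDOC rose by 1.64 ± 0.41, GPI by 0.50 ± 0.19 and HK1 by 0.50 ± 0.19 in blood, and PFKP fell by 0.74 ± 0.24. Without the blood array of mouse 8 none of the 5 blood calls held, and without mouse 4, 5, 6 or 8 no call held in marrow or spleen. In blood 2 members passed without any one of mice 4, 5 or 6, and 11 passed without mouse 3 or mouse 9. Leaving out mouse 1 left 1 member in marrow and 1 in spleen; 4 passed in marrow without mouse 2 or 3, and in spleen 4 without mouse 3 and 9 without mouse 9. The counts with a mouse left out have no share of all genes beside them here. The 24 h and 72 h comparisons share the control mice.

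**Figure D4:**
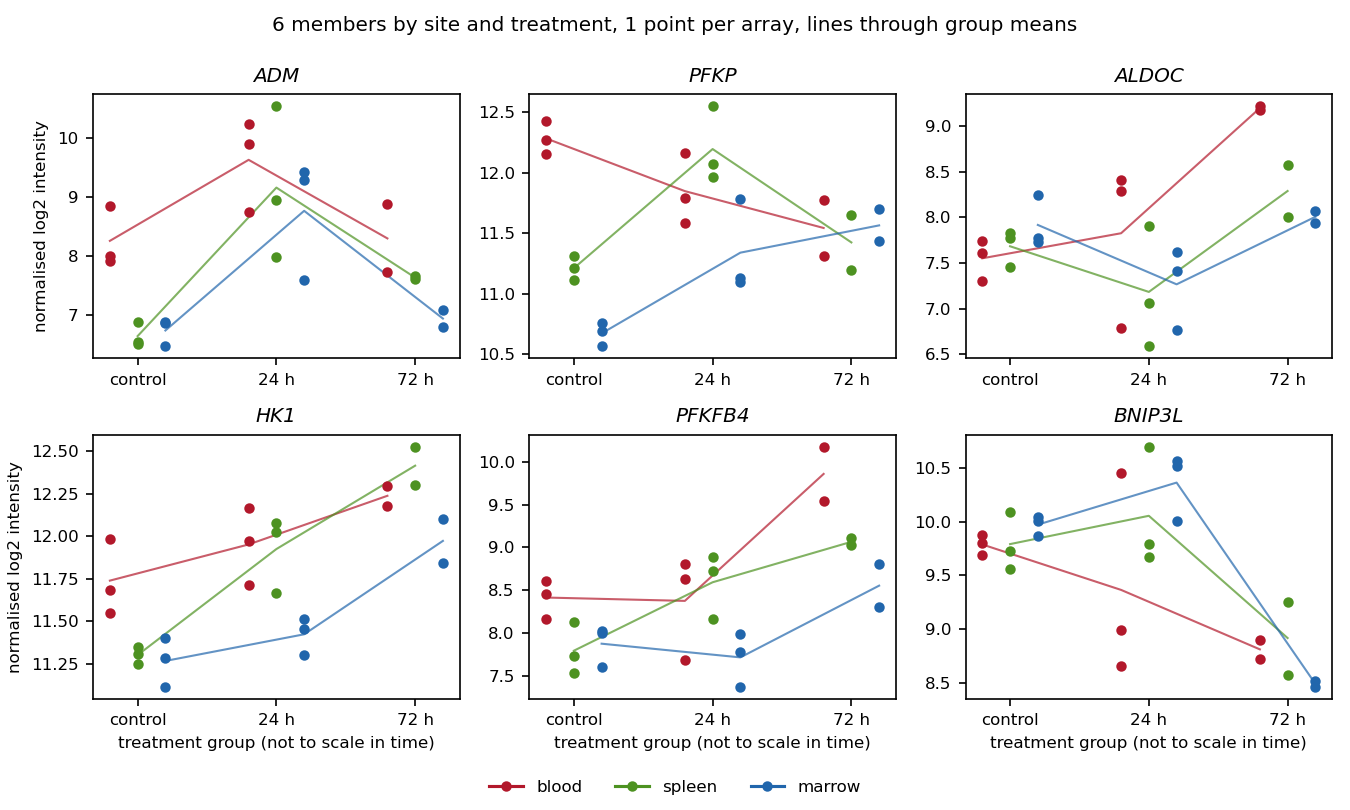
Normalised log2 intensity of 6 members by treatment group and site, 1 point per array, lines through group means. The time axis is not to scale. In spleen ADM spans 7.99 to 10.55 at 24 h and 6.50 to 6.87 in controls, BNIP3L at 72 h lies under its control values at every site, and ALDOC is highest in 72 h blood.

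Whether the differences between sites depended on treatment was tested directly. In F tests over both differences from marrow, 0 of 35 members passed at 24 h (beside 0.299% of all genes) and 0 at 72 h (beside 0.821%). The smallest adjusted p was 0.0981 for PFKP at 24 h and 0.0824 for ALDOC at 72 h. Leaving out mouse 3 gave 5 members at 24 h, a refit whose share of all genes is not given here. Single contrasts passed for PFKP and ALDOC. The blood minus marrow difference of PFKP was lower in 72 h than in control mice, at -1.63 ± 0.36 (adjusted p = 0.0414), and that of ALDOC was higher by 1.56 ± 0.33 (adjusted p = 0.0351). These were 2 of 35 members beside 1.41% of all genes. The blood minus spleen difference of PFKP was lower in 24 h than in control mice, at -1.42 ± 0.32 (adjusted p = 0.0471), 1 of 35 beside 1.27%. PFKP averaged 10.67, 11.34 and 11.57 in marrow of control, 24 h and 72 h mice, and 12.29, 11.85 and 11.54 in blood. Each of the 3 calls held under 9 of 18 alternatives; without mouse 4, 5 or 6 all 3 were lost.

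Other genes of these pathways were read in blood against marrow, beside 48.1% of all genes that passed and a median of -0.03 for all genes. Of 14 tested genes of the HIF system 3 passed: CUL2 (-0.68) and EP300 (-0.62) were lower and ELOB (0.52) was higher. HIF1A itself was not among them, at -0.05 ± 0.25. Of 23 other hypoxia-induced genes 4 were higher and 3 lower, with a median of 0.05. CCNG2 (0.52), KDM4B (0.52) and GBE1, the glycogen branching enzyme (-1.01), had the smallest p. Of 9 other glycolytic isozymes 1 was higher and 6 lower, with a median of -0.57. LDHC (-1.14) and the fructose transporter SLC2A5 (-0.68) were lower, and SLC2A6 (1.51) was higher, detected on 1 of 8 marrow arrays. Of 12 genes that handle pyruvate and lactate 4 were lower and none higher, with a median of -0.18, among them the pyruvate dehydrogenase components PDHX (-0.997), DLAT (-1.03) and DLD (-0.74). Of 6 pentose phosphate genes RPE (-1.25) and RPIA (-0.49) were lower and PGD (0.65) higher.

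Other gene groups moved between blood and marrow beside the members. All 24 mitosis genes were lower in blood (median -0.96). Of 13 monocyte maturation genes 10 were higher and 1 lower (median 1.42), and 4 of 4 small RNA genes were higher (median 4.09). The summed signal of the small RNA probes was 8114 to 77710 in blood and 1242 to 3677 in marrow. Of 13 erythroid genes on the array 9 were never detected and 3 were tested, HBA2, HBD and ALAS2, all lower in blood; the summed signal was 1131 to 23600 in blood and 8058 to 22060 in marrow. Of 13 T and NK cell genes on the array 5 were tested, 4 higher and 1 lower. CD3D, CD3E, CD3G, CD247 and CD8A were never detected, and the summed signal was 3645 to 10290 in blood and 818 to 3554 in marrow. Of 8 tissue macrophage genes 6 were tested, 2 higher and 2 lower. Of 10 genes of stroma and endothelium 9 were never detected, among them COL1A1 and CXCL12, as were MS4A1 and PAX5 of B cells. The part of these groups in the members' differences was not tested.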

How the data were processed

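RNA of sorted cells was amplified in 2 rounds and hybridised to Illumina HT12v4 arrays, per the labels' protocols. The authors deposited linear probe intensity without background subtraction and a detection p-value per probe. The deposited series matrix holds the same intensity less 1 constant per array, to within 0.011, so the arrays are not scaled to each other. GenomeStudio is named in the submitters' processing notes; its version and the genome build were not given in the sources used here.

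Intensities were background-corrected through the detection p-values with an offset of 16, quantile normalised and log2 transformed (neqc, limma 3.58.1, R 4.3.3). Probes with detection p under 0.01 on at least 3 of 24 arrays were kept: 17116 of 47231. Each gene was represented by its brightest kept probe (highest mean over arrays), which gave 10351 genes. Of 64 member probes 51 were kept, 12 members had more than 1, and in 0 of them did probes pass in opposite directions in blood against marrow. Array number limits the precision; no counting interval applies.

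Site comparisons and treatment-by-site tests used all 24 arrays with the mouse as a replicate block; the title number names the mouse. Deviations from group means correlated by 0.284 on average over 24 same-mouse pairs (lowest 0.0149). Treatment was compared on mouse means, or on group means within a site. Tests were two-sided limma tests adjusted by Benjamini-Hochberg. An "at least" fold raised the undetected values of the lower side to the lowest detected signal of their array. The fits were also run on simulated data with a random mouse effect and no BeadChip or harvest-day effect. That run cannot speak to what treatment shares with BeadChip and day. Members, lists and the rule for full values (the 2 members of each role group with the smallest p in blood against marrow, and the smallest p of each other comparison) were chosen with earlier results of these data known. SLC2A1, HIF1A, further probes and the gene pairs were added after values were seen. CD33, HOXA9 and HOXA10 were not analysed here. Alternatives changed normalisation, offset, filter, probe choice, block, array weights and arrays.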

Additional observations from a re-analysis of the deposited data

Results flagged for a closer look

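In single limma contrasts the difference between blood and another site differed between treatment groups for 2 members. The share of all genes that passed was 1.41% for blood minus marrow at 72 h and 1.27% for blood minus spleen at 24 h. No member passed in the remaining contrasts of this kind. In the F tests over both differences from marrow 0 of 35 members passed at 24 h and 0 at 72 h. For PFKP the blood minus marrow difference was lower in 72 h than in control mice, at -1.633 on the log2 scale, and the blood minus spleen difference was lower in 24 h than in control mice, at -1.42. For ALDOC the blood minus marrow difference was higher in 72 h than in control mice by 1.556. The 72 h group has 2 mice. Without the blood array of mouse 8 the adjusted p was 0.198 for PFKP (-1.45) and 0.174 for ALDOC (1.40). These are the blood minus marrow differences. On the series matrix values their limma adjusted p was 0.654 for PFKP and 0.472 for ALDOC. The blood minus spleen difference of PFKP had a limma adjusted p of 0.382 on those values and 0.074 with median scaling.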

How the results depend on the processing

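Counts of members that passed, of 35, moved as follows, and counts over all 10351 genes moved as well. Counts of all genes are given for only some settings, so a moved count is not by itself a result about the members. In blood against marrow over all mice 4981 of all genes passed, beside 2997 on the series matrix values, 710 within BeadChip 1 and 1738 within BeadChip 2. In blood against marrow over all mice, 18 became 11 on the series matrix values, 2 within BeadChip 1 and 8 within BeadChip 2; leaving out 1 mouse gave 16 to 19. In spleen against marrow, 4 became 0 on the matrix values, 2 with no replicate block, 8 with array weights, and 0 and 0 within the BeadChips; leaving out 1 mouse gave 0 to 5. In blood against spleen, 8 became 2 with no replicate block, 0 within BeadChip 1 and 1 within BeadChip 2; leaving out 1 mouse gave 1 to 10. In blood against marrow of control mice, 10 became 0 on the matrix values, 4 with no replicate block and 18 with array weights (1 mouse left out, 2 to 12). In 24 h mice, 16 became 6 on the matrix values and 10 with no replicate block (4 to 16). In 72 h mice, 4 became 0 on the matrix values, 2 without the detection filter, 1 with no replicate block and 0 with array weights (2 to 6).

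For 24 h against control, 0 became 1 with median scaling, with probes detected on all arrays, without the detection filter, with the mean of kept probes and without the 72 h blood array of mouse 8, and 19 with array weights (1 mouse left out, 0 to 1). For 72 h against control, 5 became 2 on the matrix values, 9 with median scaling, 3 without the detection filter, and 0 with BeadChip as a block or within BeadChip 2 (0 to 10). At single sites, 24 h spleen went to 1 on the matrix values (1 to 9), and 24 h marrow and blood gave 0 to 1 and 0 to 3 with 1 mouse left out. For 72 h marrow, 2 became 0 on the matrix values and with BeadChip as a block, and 4 with an offset of 50, with probes detected on all arrays and without the blood array of mouse 8 (0 to 4). For 72 h spleen, 2 became 0 on the matrix values, 4 with median scaling and 1 with BeadChip as a block (0 to 9). For 72 h blood, 5 became 0 on the matrix values and without the blood array of mouse 8, 10 with median scaling and 3 with BeadChip as a block (0 to 11). The F tests gave 10 at 24 h with array weights, 0 to 5 at 24 h and 0 to 6 at 72 h with 1 mouse left out. With median scaling 3599 of all 10351 genes passed in 72 h blood, beside 3499 in the main fit. Without mouse 8 or 9 the 72 h group is 1 mouse, assumed to vary like the other groups. The array weights did not fully converge. With them 5424 of all 10351 genes passed for 24 h against control and 3706 in the F tests at 24 h. In blood against marrow of control mice 4240 of all genes passed with them. The main fit gave 93, 31 and 1684. The cause of these moves was not tested.

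The split of members into higher and lower also moved. The matrix values differed from the main values in scaling, in background correction and in a floor of 16, and the parts of these were not tested. On the matrix values, which are not scaled between arrays, 4 members were higher and 7 lower in blood against marrow, 0 and 7 in blood against spleen, 0 and 6 in 24 h mice and 0 and 2 for 72 h against control; the median of all genes was -0.215, -0.399, -0.373 and -0.337 there, and 0.171 in spleen against marrow. With median scaling, 5 were higher and 5 lower in control mice, 5 and 3 in blood against spleen, 3 and 1 in spleen against marrow and 10 and 0 in 72 h blood, where the median of all genes was 0.158; it was 0.164 for 72 h against control. Of 1517 repeats of single member results, 1096 kept the call, 421 lost it and 0 changed sign. Many of these repeats could not change a sign. Dropping the mouse block or making it random, a filter that kept the same probe, or leaving out a mouse outside the comparison left the difference itself unchanged. Members near background (ENO2, EGLN1, VEGFA) are limited by signal.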
